A study of Mus musculus with 20 samples.

Results

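The genes described here are 10 adhesion and filament genes of epithelial and mesenchymal cells, namely the cadherins Cdh1, Cdh2, Cdh6 and Cdh16, the adhesion molecule Epcam, the keratins Krt7, Krt8, Krt18 and Krt19, and vimentin (Vim). They were taken by gene name from a table of 54532 genes, with no limit on their values, and all 10 were among the 15354 genes that passed the filter on low counts. The RNA of 10 tumors and 10 normal kidneys from the Cre-less AAV model of kidney cancer was sequenced in bulk, and the comparison asks how the gene expression profile of the tumors differs from that of the normal kidneys. In this model LSL-Cas9/+; Pax8 Cre/+ mice on a C57BL/6 background received an injection into the kidney of adeno-associated virus (AAV) that encodes sgRNAs against Vhl, Pbrm1, Keap1 and Tsc1. The Pax8 promoter drives Cre, Cre removes a stop cassette before Cas9 and EGFP at the ROSA26 locus, and editing is thereby limited to Pax8-expressing cells, mainly the renal tubule epithelium. The normal kidney tissue was taken from the same 10 mice, so both groups carried the Cas9 and Cre alleles, and the labels do not say whether it came from the injected kidney. Age and sex are not given for single libraries, and each library is 1 tissue piece, so bulk values mix all its cells.

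Classical cadherins join neighboring cells through calcium-dependent contacts and are tied to actin inside the cell by catenins. Keratins form filaments only as pairs of a type II chain (Krt7, Krt8) with a type I chain (Krt18, Krt19), and desmosomes anchor these filaments at cell contacts, whereas vimentin forms the filaments of fibroblasts, endothelial cells and leukocytes and also appears in injured tubule cells. In the kidney Cdh16 is made along the tubule, Cdh1, Epcam and Krt7 are best known from the distal nephron and collecting duct, and Cdh2 and Cdh6 from the proximal tubule.

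Library totals ran from 14737516 to 26679704 counts. Values of single libraries are normalized read counts (CPM), that is, counts scaled to the library total times its TMM factor (trimmed mean of M values), and 3 counts, the limit that a count of 0 allows, equaled at most 0.189 CPM. The TMM factor of normal kidney 9 was 0.749, whereas the 9 other normal kidneys had 1.03 to 1.14 and tumors 0.881 to 1.11. Normal kidney 9 also had the lowest number of detected genes, 19996. Tumor 7 stood apart in marker genes of other cells. Its 8 fibroblast markers summed to 8197 CPM, against at most 655 CPM in the other tumors, and its 10 proximal tubule markers to 1177 CPM, the lowest sum of the 20 libraries. Normal kidneys 5, 7 and 8 had summed levels of 7 tubule injury genes of 39330, 54170 and 29440 CPM, whereas the other normal kidneys had at most 4861 CPM. Spp1 was the most abundant of these 7 genes, with 2026 to 44330 CPM in normal kidneys and 8319 to 36140 CPM in tumors. Of the edited genes, Vhl (log2 fold change -0.49, adjusted p = 0.00179) and Tsc1 (-0.61, adjusted p = 0.00871) were lower in tumors, Keap1 was higher (0.83, adjusted p = 1.3e-07), and Pbrm1, at -0.28, did not pass the test (adjusted p = 0.23).

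The quasi-likelihood test of edgeR was run on the 20 libraries together, and a gene was called at a Benjamini-Hochberg adjusted p below 0.05 over all genes tested. Of the 10 genes, 8 were called, against 47.5% of all genes tested. Krt19, Cdh6 and Krt8 were higher in tumors, 3 of 10, against 23.6% of all genes called higher. Epcam, Krt7, Cdh2, Cdh1 and Krt18 were lower, 5 of 10, against 23.8% of all genes called lower. Cdh16 and Vim were not called. In 3 genes (Epcam, Krt7 and Cdh2) every tumor lay below every normal kidney, a pattern found in 4.74% of all genes. Every tumor lay above every normal kidney in 5.87% of all genes and in 0 of the 10. The call of Krt8 was the least secure of the 8, since it was kept in 11 of 30 alternative analyses, whereas the other 7 were kept in all 30. Other scalings shifted the middle value of all log2 fold changes, -0.021 here, to -0.14 at the lowest and turned the direction of none of the 10. The plot of log2 CPM by library shows the 20 values of each gene.

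**Figure D1:**
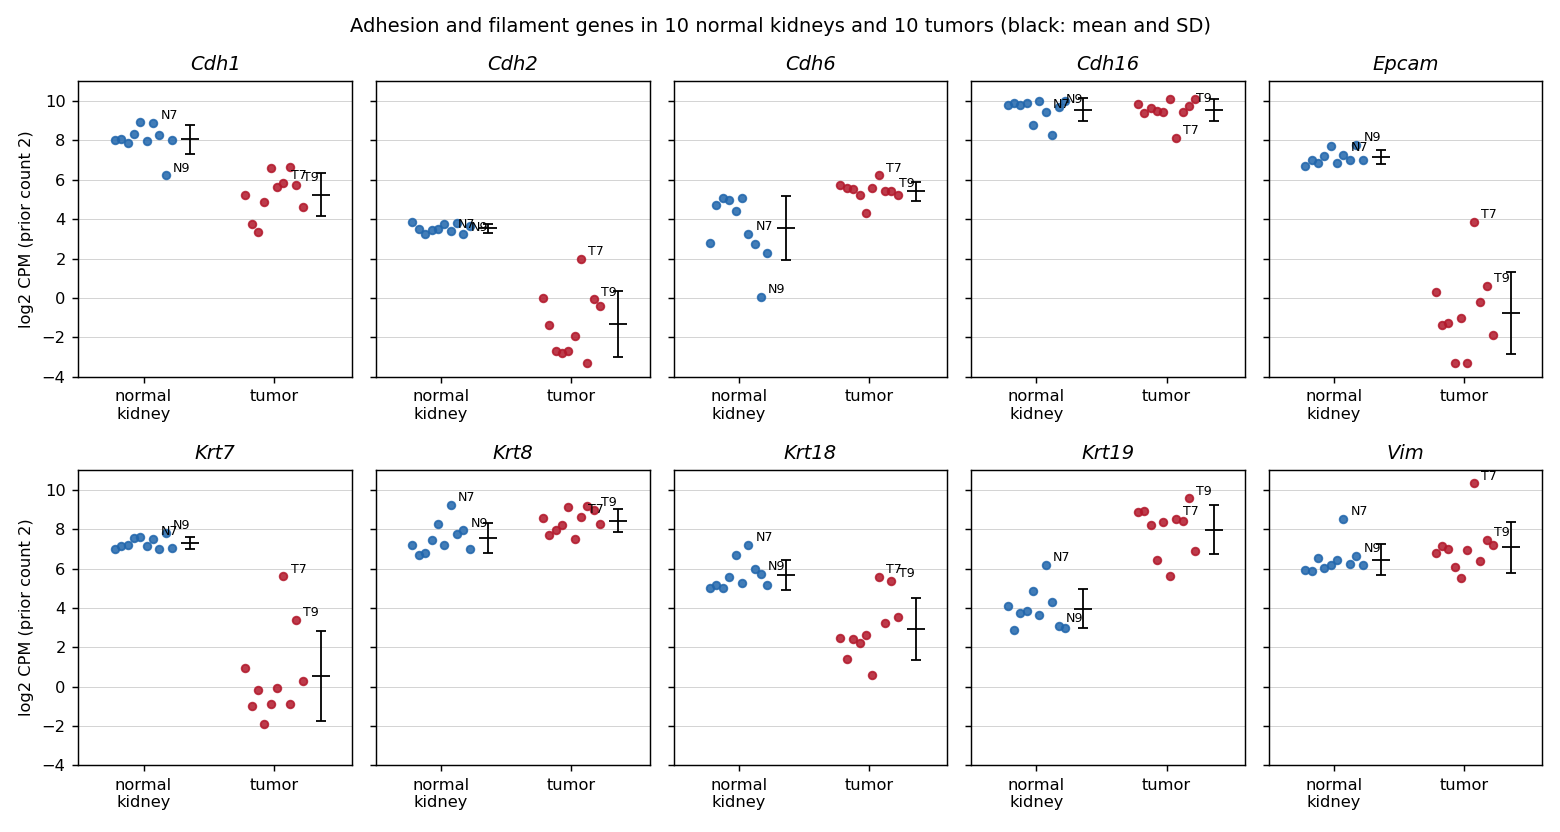
Level of each gene in each library on a log2 CPM scale (y axis), with 10 normal kidneys in blue and 10 tumors in red. Black bars give the mean and SD of each group, and tumors 7 and 9 (T7, T9) and normal kidneys 7 and 9 (N7, N9) are labeled. Epcam, Krt7 and Cdh2 did not overlap between groups, Krt19 overlapped in 1 tumor, and Cdh16 overlapped almost fully.

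Among the cadherins, E-cadherin (Cdh1, chr8:106603351-106670246, plus strand, mm10) is the main adhesion molecule of epithelial cell junctions. Its lowest, median and highest values were 74.5, 268 and 496 CPM in normal kidneys and 10.2, 43.5 and 100 CPM in tumors. The groups overlapped only through normal kidney 9, the lowest normal kidney, since the next lowest had 238 CPM and lay above all tumors. Tumors differed by a log2 fold change of -2.64 (SE 0.39, adjusted p = 9.1e-06), a level 6.24-fold lower in tumors.

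N-cadherin (Cdh2, on chromosome 18, minus strand), the cadherin that epithelial cells are often described as gaining in a switch to a mesenchymal state, was also lower in tumors. Normal kidneys were tightly grouped, with 9.30, 11.4 and 14.3 CPM as the lowest, median and highest values. Tumors had 0, 0.223 and 3.89 CPM. The highest value belonged to tumor 7, the next highest was 0.895 CPM, and tumor 8 had no count, which allows up to 0.166 CPM. Its log2 fold change of -4.04 (SE 0.64, adjusted p = 2.55e-05) became -5.08 without tumor 7. Cdh1 and Cdh2 were thus both lower in tumors.

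Cdh6 (chr15:13028701-13173675, minus strand), a cadherin first described in kidney and prominent in developing nephrons, was higher in tumors. The lowest, median and highest values were 0.943, 15.5 and 33.4 CPM in normal kidneys and 20.0, 44.7 and 74.7 CPM in tumors. In 9 of 10 tumors the level was above that of every normal kidney, and the exception was tumor 5. Normal kidneys spread widely, by 35.4-fold from normal kidney 9 to normal kidney 6, and tumors by 3.73-fold. The log2 fold change was 1.37 (SE 0.43, adjusted p = 0.0124).

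Cdh16 (chr8:104601911-104624396, minus strand), the kidney-specific Ksp-cadherin, lies 1980 kb from Cdh1 on chromosome 8. Its values were 314, 889 and 1031 CPM in normal kidneys and 280, 762 and 1120 CPM in tumors. The ranges covered each other almost entirely, and 3 of 10 tumors lay above the median of the normal kidneys. The low end in normal kidneys came from normal kidneys 8, 5 and 7, with 314, 435 and 702 CPM. These libraries also had the highest sums of tubule injury genes, and the other normal kidneys had at least 837 CPM of Cdh16. The difference was -0.033 on the log2 scale (SE 0.23, adjusted p = 0.92), and its sign changed with the choice of libraries. The lowest tumor was tumor 7, while the other tumors had at least 668 CPM. The promoter of this gene drives Cre in another model of the same study, but not in the mice used here.

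Per kilobase of gene length, Cdh16 had the highest level of the 4 cadherins in every library. Its share of their summed CPM per kb was 50.6% to 92.6% in normal kidneys and 77.6% to 96.8% in tumors. The share of Cdh1 had a median of 18.9% in normal kidneys (6.84% to 47.8%) and 3.37% in tumors (1.01% to 13.2%). The normal kidneys with the largest Cdh1 shares were normal kidneys 5, 8 and 7, the same 3 libraries with the highest sums of tubule injury genes. Cdh16 was lowest among normal kidneys in these 3 libraries, which raises the share of Cdh1. The Cdh1 level of normal kidney 8, 305 CPM, was below that of normal kidney 4, 325 CPM. The ratio of Cdh6 to Cdh1, per length, did not overlap between groups. It lay between 0.00642 and 0.0707 in normal kidneys and between 0.105 and 2.31 in tumors, and Cdh6 exceeded Cdh1 in tumors 2 and 3.

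Epcam (chr17:87635979-87651106, plus strand), an epithelial adhesion molecule that binds its like on neighboring cells and stabilizes claudins, had the greatest fold difference of the 10 genes. Its values were 105, 129 and 222 CPM in normal kidneys. In tumors they were 0, 0.352 and 14.3 CPM, with no count in tumors 4 and 6, which allows up to 0.129 and 0.161 CPM. Every tumor lay below every normal kidney, and all tumors but tumor 7 had at most 1.43 CPM. This gave a log2 fold change of -6.24 (SE 0.83, adjusted p = 2.83e-06), a level 75.4-fold lower, which was -8.17 without tumor 7. Tumor RNA thus held little Epcam beside Cdh16 levels that overlapped those of normal kidney.

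The upstream sequence of Epcam is shown because its RNA was nearly absent from tumors, and those of Krt8 and Krt18 because these neighbors on chromosome 15 moved in opposite directions, as their values after the sequences show. The sequences come from RefSeq promoter windows on GRCm38.p6, which held windows for Cdh6, Epcam, Vim, Krt7, Krt8 and Krt18 and none for Cdh1, Cdh16 and Krt19. Each is printed 5′ to 3′ on the strand of the gene, from 250 bases before the RefSeq start up to the first annotated exon base, so no exon is included. Capitals mark matches on either strand to 5 motifs, namely the E-box CACCTG read by Snail and Zeb factors, the hypoxia element cores ACGTG and GCGTG, the antioxidant element core TGACNNNGC, and TATAAA.
Krt8 (chr15:102004483-102004592, minus strand): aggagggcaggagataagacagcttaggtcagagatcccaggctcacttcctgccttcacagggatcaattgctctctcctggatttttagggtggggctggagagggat
Krt18 (chr15:102027966-102028179, plus strand): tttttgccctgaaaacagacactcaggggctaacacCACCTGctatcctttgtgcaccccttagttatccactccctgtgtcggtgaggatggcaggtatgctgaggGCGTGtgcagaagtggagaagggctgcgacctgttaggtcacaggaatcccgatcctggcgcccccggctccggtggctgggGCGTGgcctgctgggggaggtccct
Epcam (chr17:87635729-87635978, plus strand): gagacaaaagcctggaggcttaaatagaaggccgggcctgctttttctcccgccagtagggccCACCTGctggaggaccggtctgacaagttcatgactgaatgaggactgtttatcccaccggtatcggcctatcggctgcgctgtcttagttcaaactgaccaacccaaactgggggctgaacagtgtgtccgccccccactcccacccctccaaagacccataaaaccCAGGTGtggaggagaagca
The Epcam stretch held 2 matches to the E-box and none to the other motifs, and 17.2% of all 32851 promoter windows held an E-box over the same 250 bases. The Krt18 stretch of 214 bases held 1 E-box, found in 15.2% of all windows over that stretch, and 2 matches to GCGTG, found in 24.3%. The Krt8 stretch of 110 bases held none of the 5 motifs, which were found in 3.7% to 12.1% of windows. These matches describe letters only and say nothing of binding.

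Krt8 and Krt18 are the usual partner chains of simple epithelia, and their genes are neighbors with 23.7 kb between them. Krt8 (chr15:101996698-102004482, minus strand) had 103, 162 and 607 CPM as its lowest, median and highest values in normal kidneys and 183, 343 and 576 CPM in tumors. All 10 tumors lay above the median of the normal kidneys, but the highest value of all was that of normal kidney 7. The log2 fold change was 0.76 (SE 0.31, adjusted p = 0.0466), and the call was lost under 19 of 30 alternatives, among them 3 other scalings and the omission of any of 14 single libraries. Without tumor 8, for example, the adjusted p was 0.0911.

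Krt18 (chr15:102028180-102032027, plus strand) moved the other way. Its values were 31.7, 43.0 and 149 CPM in normal kidneys and 1.39, 5.68 and 47.3 CPM in tumors. In 8 of 10 tumors the level was below that of every normal kidney, and the exceptions were tumor 7 and tumor 9 (41.0 CPM). Krt18 had a log2 fold change of -2.13 (SE 0.55, adjusted p = 0.00326), and of -3.37 without both of these tumors. It was called lower under all 30 alternatives.

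The ratio of Krt8 to Krt18, per length, stayed within narrow limits in normal kidneys, between 2.14 and 3.38. In tumors it lay between 6.20 and 96.1, with a median of 46.8, and the lowest values were those of tumors 7 and 9. The ratio of normal kidney 7, whose Krt8 and Krt18 were both the highest among normal kidneys, was 3.00, well inside the range of its group. Both chains were thus high together in normal kidney 7, whereas in 8 of 10 tumors Krt8 was present with less Krt18 than in any normal kidney. In normal kidneys the log2 CPM of Krt8 and Krt18 had a Pearson r of 0.96 and in tumors of 0.66, each a description over 10 libraries.

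Krt19 (chr11:100140810-100148665, minus strand), the smallest keratin and a type I chain of ducts, urothelium and some injured tubules, was higher in tumors. It had 7.25, 13.9 and 73.4 CPM in normal kidneys and 48.6, 331 and 759 CPM in tumors. The groups overlapped only through tumor 6, the lowest tumor, and normal kidney 7, the highest normal kidney, while every other normal kidney had at most 28.7 CPM. Tumors and normal kidneys differed by 4.03 on the log2 scale (SE 0.52, adjusted p = 1.94e-06), a level 16.3-fold higher in tumors.

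Krt7 (chr15:101411043-101430313, plus strand), a type II chain of collecting duct and urothelium, was nearly absent from most tumors. Its values were 125, 144 and 225 CPM in normal kidneys and 0.172, 0.824 and 48.6 CPM in tumors. Only tumor 7 and tumor 9 (10.4 CPM) exceeded 1.85 CPM among tumors, and every tumor lay below every normal kidney. Its log2 fold change was -4.61 (SE 0.88, adjusted p = 0.000189), -6.41 without tumor 7 and -7.72 without tumors 7 and 9.

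**Figure D2:**
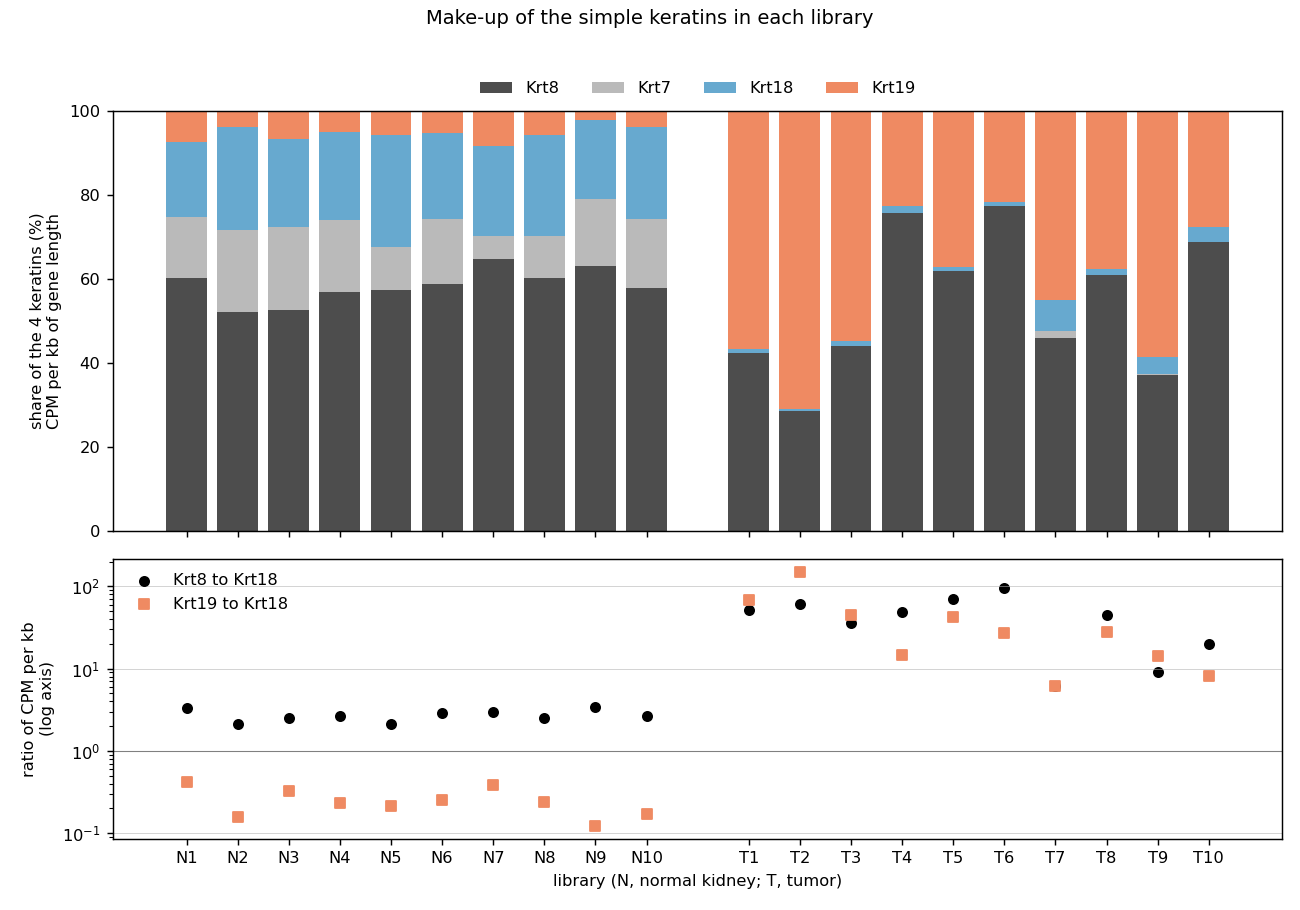
Upper panel, share of each of Krt7, Krt8, Krt18 and Krt19 in their summed CPM per kb of gene length (y axis, percent) in each library (x axis, N normal kidney, T tumor). Lower panel, ratios of Krt8 and Krt19 to Krt18 per length on a log axis. Krt19 took up 2.27% to 8.26% in normal kidneys and 21.8% to 71.0% in tumors, and both ratios were higher in every tumor than in any normal kidney.

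The plot of keratin shares shows that no tumor had the make-up of a normal kidney. Per length, Krt18 took up 17.9% to 26.8% of the 4 in normal kidneys and 0.468% to 7.42% in tumors. Krt8 took up 52.1% to 64.7% in normal kidneys and 28.6% to 77.4% in tumors, and these ranges overlapped. Krt19 exceeded Krt18 in every tumor, by 6.07-fold to 152-fold, and was below Krt18 in every normal kidney, at 0.122 to 0.417 of its level. The summed type II chains exceeded the summed type I chains in all normal kidneys, by 2.08-fold to 3.78-fold, whereas the ratio ran from 0.4 to 3.43 in tumors. The deposited length of Krt7, 7049 bases, covers several transcript forms and makes its per-length level low, which bears on its share but not on its fold change.

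Vimentin (Vim, chr2:13573927-13582826, plus strand) had a log2 fold change of 1.13 (SE 0.54) that did not pass the test (p = 0.0487, adjusted p = 0.0908 in edgeR's test). The values were 57.9, 74.0 and 370 CPM in normal kidneys and 45.6, 124 and 1294 CPM in tumors. The highest tumor was tumor 7 and the highest normal kidney was normal kidney 7, and without them the highest values were 177 and 101 CPM. Of the tumors, 8 of 10 lay above the median of the normal kidneys. The value depended on both libraries: the log2 fold change was 0.099 (adjusted p = 0.825) without tumor 7, 1.61 (adjusted p = 0.0128) without normal kidney 7, and 0.62 (adjusted p = 0.0175) without tumor 7 and normal kidneys 7 and 9.

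The plots of Vim, Krt7 and Krt8 against summed marker lists set these genes beside markers of other cells. Vim was highest in each group in the library with the most fibroblast marker RNA, and Krt7 was highest among tumors in the 2 with the most urothelium marker RNA. Among normal kidneys, however, Krt7 was highest in normal kidney 9, which had the least urothelium marker RNA. In bulk tissue, fewer cells of a type and less RNA per cell cannot be told apart. The 8 fibroblast markers summed to 252 to 1505 CPM in normal kidneys, with normal kidney 7 highest, and to 149 to 8197 CPM in tumors, with tumor 7 highest. Of these 8, 1 was called higher and 1 lower in tumors, against 23.6% and 23.8% of all genes tested. None was at 0 in any library. The 8 leukocyte markers, whose cells also make vimentin, summed to 78.2 to 297 CPM in normal kidneys and 261 to 1221 CPM in tumors. Of the 6 tested, 4 were called higher, against 23.6% of all genes tested. The 8 endothelial markers summed to 543 to 764 CPM in normal kidneys and to 453 to 1231 CPM in tumors. The part of these cells in the Vim levels was not tested.

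**Figure D3:**
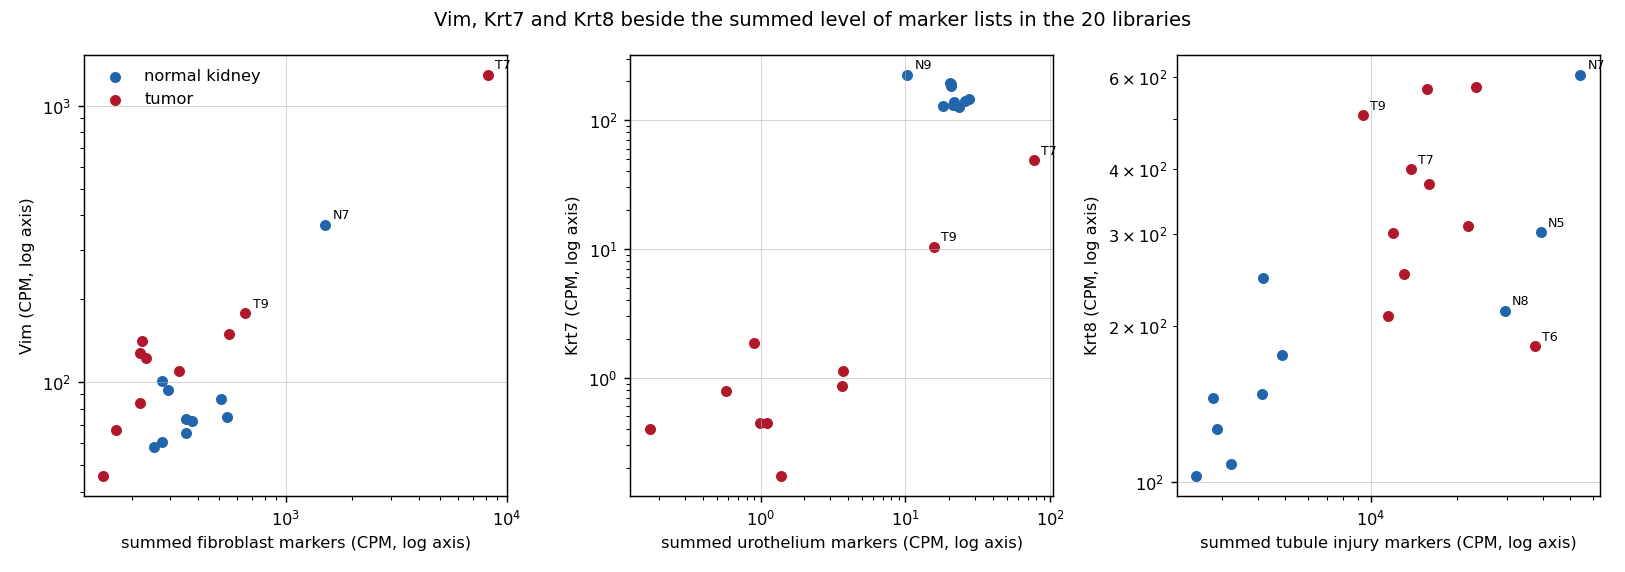
CPM of Vim, Krt7 and Krt8 (y axes, log scale) against the summed CPM of fibroblast, urothelium and tubule injury markers (x axes, log scale), with 1 point per library (blue, normal kidney; red, tumor). Tumor 7 was highest for Vim and for fibroblast and urothelium markers, and normal kidney 7 was highest for Krt8 and for tubule injury genes.

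Beside the lower Epcam, Krt7, Cdh1 and Krt18, markers of the distal nephron were lower in tumors. Each count of markers here stands against 23.8% of all genes tested called lower. The 4 loop of Henle markers were all called lower and summed to 3603 to 9224 CPM in normal kidneys and to 1.06 to 6.4 CPM in tumors. Principal cell markers were called lower in 6 of 6 tested, with sums of 215 to 1275 CPM in normal kidneys and 0.301 to 32.3 CPM in tumors, and Aqp2, the water channel that defines these cells, had no count in 7 of 10 tumors. The distal convoluted tubule and intercalated cell lists were lower as well, in 3 of 3 and 5 of 5 members tested. The 5 urothelium markers summed to 10.3 to 27.3 CPM in normal kidneys. They summed to 77.3 CPM in tumor 7, to 15.7 CPM in tumor 9 and to at most 3.72 CPM in the other tumors, so the tumors with the most Krt7 and Krt18 RNA were those with the most urothelium marker RNA. In normal kidney 9, where Cdh1 was lowest and Epcam and Krt7 were highest, the principal cell sum was the highest of all libraries and the podocyte sum, 121 CPM, the lowest. The proximal tubule list was lower in 5 of 10 members, against 23.8% of all genes tested. Its sums were 1944 to 13970 CPM in normal kidneys and 1177 to 9428 CPM in tumors. These markers differed among themselves. Slc22a8 had a median of 518 CPM in normal kidneys and 28.95 CPM in tumors, and Lrp2 of 2403 and 2774 CPM. The part of these cells in the member genes was not tested.

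Of the 7 tubule injury genes, 2 were called higher and 2 lower in tumors, near the 23.6% and 23.8% of all genes tested. Among normal kidneys the sum of these injury genes was highest in normal kidneys 7, 5 and 8. Krt8 and Krt18 were among the 4 highest normal kidney values in these same libraries, and Krt19 was highest there too, with 73.4, 28.7 and 19.4 CPM. Tumors showed no such order for Krt8. Tumor 6 had the highest injury sum among tumors, 37640 CPM, and the lowest Krt8. Tumor 9 had the lowest sum, 9370 CPM, with 508 CPM of Krt8. However, tumor 8 had the second highest sum, 23400 CPM, and the highest Krt8, 576 CPM. Tumor 2 had the second lowest sum, 11430 CPM, and the second lowest Krt8, 209 CPM. The injury genes also differed among themselves, and their sum mostly followed Spp1, the most abundant of them. Clu had a median of 428 CPM in normal kidneys and 46.8 CPM in tumors. Havcr1 had a median of 28.0 CPM in normal kidneys, with 1347 CPM in normal kidney 7, and of 235 CPM in tumors. Anxa3 and Vcam1 were higher in every tumor than in any normal kidney, at 318 to 726 CPM against at most 254 CPM and at 69.4 to 137 CPM against at most 35.4 CPM. Lcn2 had a median of 42.4 CPM in normal kidneys, with 3302 CPM in normal kidney 7, and at most 165 CPM in tumors. The part of injury in the keratin levels was not tested.

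Related genes were counted in 9 lists written with earlier results of these data known, and each count stands against 23.6% of all genes tested called higher and 23.8% called lower. In the cadherin-catenin list, 4 of 10 tested genes were higher and 1 lower in tumors, with a median log2 fold change of 0.30, against -0.021 over all genes tested. With library totals 2 were higher, and with upper quartile factors 3 were lower. Nectin1, an adhesion molecule that recruits cadherins to new junctions, rose from a mean of 47.1 ± 14.3 CPM (SD, n = 10) to 178 ± 32.4 CPM, and Vcl (vinculin), which ties catenins to actin, from 58.7 ± 22.3 to 189 ± 31.7 CPM. Ctnna1 and Ctnnb1, the α- and β-catenins that bind the cadherin tail, had log2 fold changes of 0.072 and 0.25 that did not pass the test, beside a Cdh1 level 6.24-fold lower. Jup (plakoglobin), which serves both adherens junctions and desmosomes, was lower (log2 fold change -0.34, adjusted p = 0.0283), a call lost without normal kidney 7 (adjusted p = 0.0567) or without tumor 2, 3 or 10 (adjusted p = 0.0514 to 0.0538).

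Of the other cadherins tested, 7 of 12 were higher and 2 lower, with a median log2 fold change of 0.66, and without tumor 7 and normal kidneys 7 and 9, 4 were higher and 3 lower. The highest fold belonged to Cdhr2, a protocadherin that links brush border microvilli, with a mean of 49.1 ± 17.1 CPM in normal kidneys and 316 ± 107 CPM in tumors (adjusted p = 1e-08). Its binding partner Cdhr5 rose from 156 ± 49.3 to 502 ± 129 CPM. Fat4, an atypical cadherin of planar polarity, fell by 1.17 on the log2 scale, and Cdh4, at a mean of 1.76 CPM in normal kidneys, fell by 2.17, or by 3.26 without tumor 9.

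Of the other keratins, 6 of 11 had enough counts to be tested, and 4 were lower and 0 higher by edgeR's quasi-likelihood test (0 higher also at an unadjusted p below 0.05 and by DESeq2, 1 by limma-voom). Those named by the rule were scarce: Krt15 had a mean of 3.20 CPM and Krt23 of 3.19 CPM in normal kidneys and 0.213 and 0.257 CPM in tumors. Their log2 fold changes of -3.80 and -3.53 were -7.55 and -4.49 without tumor 7. Krt20, a keratin of urothelium and injured epithelium, reached 761 CPM in a tumor and 334 CPM in a normal kidney, but its log2 fold change of 1.36 did not pass the test (adjusted p = 0.279). Of the other intermediate filament genes, 5 of 7 were higher and 0 lower by edgeR (0 lower also at an unadjusted p below 0.05, 1 each by DESeq2 and limma-voom), and 3 were higher with library totals. Synm (synemin), which copolymerizes with vimentin, rose from 4.36 ± 2.23 to 23.2 ± 10.7 CPM, and Prph (peripherin) from 0.433 ± 0.296 to 3.56 ± 1.51 CPM. Lmna, which forms the nuclear lamina, rose by 0.88 on the log2 scale (adjusted p = 0.0016).

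Desmosomes and plakins anchor keratin filaments, and 7 of 11 such genes were lower and 2 higher, with a median log2 fold change of -0.85. Dsc2 (desmocollin 2), a desmosomal cadherin, had a mean of 3.82 ± 1.5 CPM in normal kidneys and 0.324 ± 0.542 CPM in tumors, a log2 fold change of -3.49, or -4.41 without tumor 7. Dsp (desmoplakin), the linker to keratin filaments, fell from 67.6 ± 26.3 to 13.9 ± 32.8 CPM, and its log2 fold change of -2.28 was -4.20 without tumor 9 and lost its call without tumor 1 (adjusted p = 0.0503) or tumor 8 (adjusted p = 0.0509). Plec (plectin), a linker of several filament types, rose (log2 fold change 1.00, adjusted p = 0.00144), as did Pkp2 (plakophilin 2; 0.88, adjusted p = 0.013).

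Of the genes whose products work with Epcam, 3 of 7 were lower (against 23.8% of all genes) and 1 higher, and with library totals 5 were lower. St14 (matriptase), a protease that cleaves Epcam, fell by 2.47 on the log2 scale, whereas its inhibitor Spint1 rose by 0.49 (adjusted p = 0.0117). Cldn7, the claudin that Epcam binds, had a log2 fold change of -0.48 that did not pass the test (adjusted p = 0.0741).

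Regulators of epithelial genes were lower in 7 of 10 and higher in 1 (2 without normal kidney 9), and the median log2 fold change was -2.11. Grhl2, a transcription factor that maintains Cdh1 expression in other epithelia, had 6.47 to 18.9 CPM in normal kidneys and at most 1.88 CPM in tumors. Its log2 fold change was -5.29 (adjusted p = 8.42e-07), and -6.55 without tumor 7. Rab25, a GTPase of epithelial membrane recycling, fell by 5.12 on the log2 scale, and by 7.75 without tumor 7. Esrp1, which sets epithelial splice forms, had a log2 fold change of -4.95 and its relative Esrp2 of -0.55, both called lower. Elf3, another epithelial transcription factor, rose from 33.6 ± 16.8 to 76.7 ± 34.8 CPM. Markers of the distal nephron were also lower in tumors, as given above. The part of these cells in the levels of the regulators, desmosome genes and Epcam partners was not tested.

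The list of mesenchymal transcription factors holds the repressors of epithelial genes. Of its 7 genes tested, Zeb2 was higher (log2 fold change 0.99, adjusted p = 0.000112) and Foxc2 lower (-2.01, adjusted p = 0.000281), and without tumor 7, 2 were lower. Snai1, Snai2, Zeb1 and Twist1 had log2 fold changes of 0.34, -0.69, -0.027 and 0.29, and none passed the test (adjusted p = 0.464, 0.104, 0.927 and 0.699). Zeb2 is also made by macrophages, and 4 of 6 leukocyte markers tested were called higher in tumors, against 23.6% of all genes tested. The part of leukocytes in the Zeb2 level was not tested.

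Mesenchymal matrix and cytoskeleton genes were higher in 4 of 10 tested, against 23.6% of all genes, and lower in 0 by edgeR's test (0 lower also at an unadjusted p below 0.05), with a median log2 fold change of 1.78. DESeq2, limma-voom and the fit without tumor 7 called 2, 1 and 3 of them lower. Cd44, a receptor for hyaluronan, rose from 8.40 ± 8.14 to 78.8 ± 38.1 CPM. Fn1 (fibronectin) and Sparc were also called, with log2 fold changes of 2.77 and 1.73. Col1a1, Col3a1 and Acta2, the collagen chains and actin of fibroblasts and smooth muscle, were not called (adjusted p = 0.0733, 0.0685 and 0.923), and tumor 7 held the highest Col1a1 and Col3a1 values, 1565 and 4242 CPM. Col1a1 and Col3a1 also belong to the fibroblast list.

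**Figure D4:**
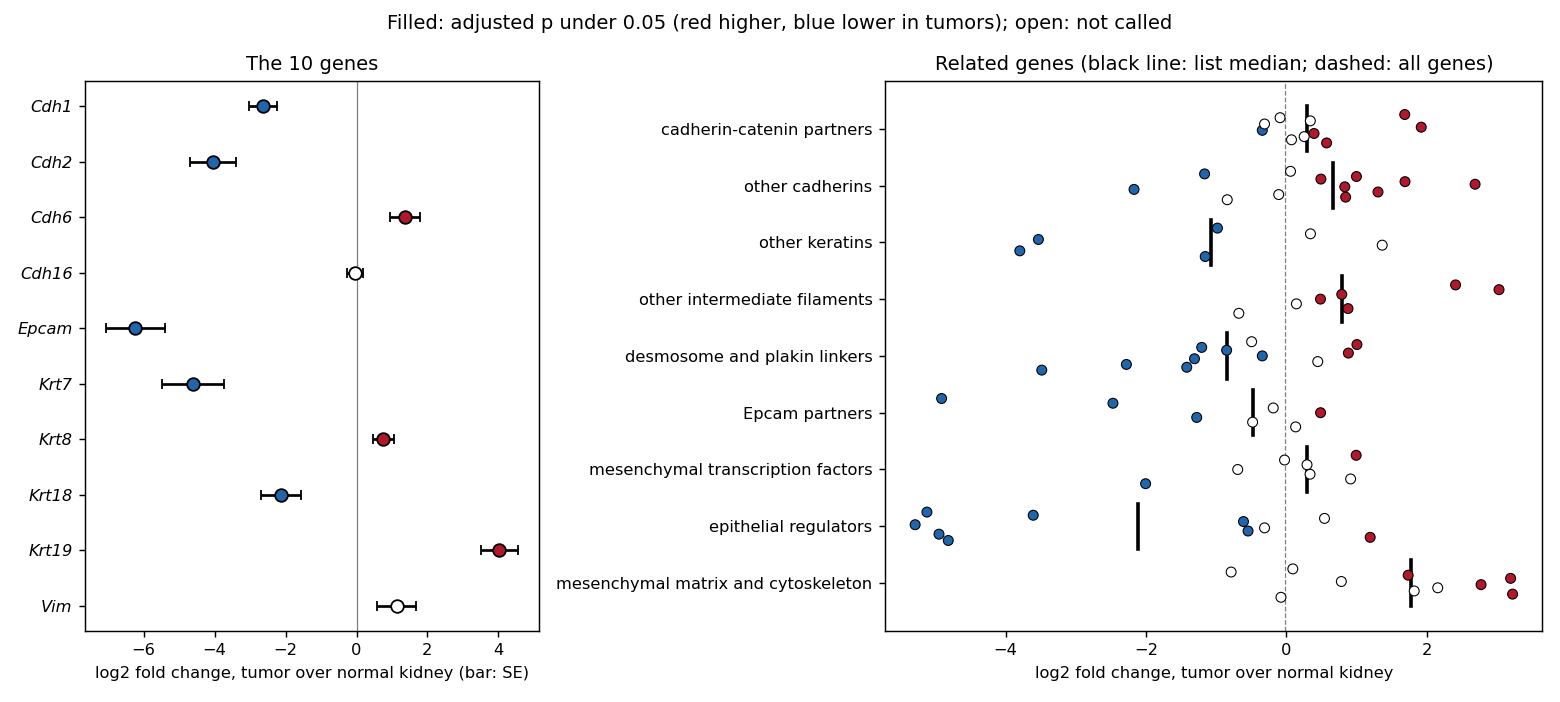
Left, log2 fold change of tumor over normal kidney (x axis) for the 10 genes, with bars for the SE. Right, log2 fold changes of the tested genes of 9 related lists, with a black line at each list's median and a dashed line at -0.021, the median of all genes. Filled symbols were called (red higher, blue lower in tumors) and open symbols were not. Epithelial regulators have the lowest median, -2.11, and matrix and cytoskeleton genes the highest, 1.78.

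The order of the 10 genes by median CPM per kb differed between the groups. In normal kidneys it was Cdh16, Krt8, Epcam, Cdh1, Krt18, Krt7, Vim, Krt19, Cdh6 and Cdh2. The ranges of neighbors in this order overlapped except for Krt19 and Cdh6. In tumors the order was Cdh16, Krt19, Krt8, Vim, Cdh1, Cdh6, Krt18, Epcam, Krt7 and Cdh2, and the ranges of all neighbors overlapped. Krt19, eighth in normal kidneys at a median of 7.48 CPM per kb, was second in tumors at 178 CPM per kb. Its rank above Krt8, at 175 CPM per kb, rests on close medians, since Krt19 exceeded Krt8 in only 4 of 10 tumors. Epcam, the third at 63.0 CPM per kb, was eighth at 0.173 CPM per kb.

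Spread among tumors also differed by gene. The coefficient of variation of the CPM in tumors was 30.8% for Cdh6, 30.9% for Cdh16 and 39.0% for Krt8, but 123% for Krt18, 162% for Vim, 171% for Cdh2, 232% for Krt7 and 234% for Epcam. In the last 5 genes tumor 7 held the highest value, as it also did in Cdh6. In normal kidneys the coefficient of variation was lowest for Cdh2 (15.6%), Krt7 (21.6%) and Epcam (27.4%), the same 3 genes in which no tumor reached the normal range.

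For each of the 10 genes, the protein-coding genes most like it were found by the Pearson r of log2 CPM, centered within each group, over 20 libraries and 13695 genes, as a description without a test. Libraries that stand apart weigh on these values, and each library shares its depth across all genes. Vim was most like the fibrillar collagen genes Col3a1 and Col1a2, with r = 0.93 each. Epcam followed Eya2 (r = 0.93). Cdh1 was most like Csnk1a1 (r = 0.91), Cdh2 like Hs6st2 (r = 0.91) and Prdm11 (r = 0.90), Cdh6 like Apln (r = 0.88) and Frmd4a (r = 0.84), and Cdh16 like Atp6ap1 and Habp2 (r = 0.89 each). Among the keratins, Krt7 was most like Lhfp (r = 0.95) and Agpat4 (r = 0.94), Krt8 like Wbp1l (r = 0.91) and the claudin gene Cldn4 (r = 0.89), Krt18 like Sfxn3 (r = 0.95) and Pdlim1 (r = 0.91), and Krt19 like Clca3a2 (r = 0.83) and Kctd10 (r = 0.82). Hs6st2 followed Cdh2 in tumors (r = 0.98) but not in normal kidneys (r = -0.17). Both values are limited. Cdh2 had at most 0.895 CPM in tumors other than tumor 7, and in normal kidneys it varied little (coefficient of variation 15.6%).

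Some of these genes overlap others, and whether the counting used strand is not given in the sources used here. Krt7 overlaps the antisense gene Gm671, which had at most 28 counts in a library, Krt8 overlaps Gm36026 (at most 6 counts), and Cdh2 overlaps Gm15485 (0 counts). The pseudogene Krt8-ps had at most 27 counts in a library, against up to 16625 for Krt8.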

How the data were processed

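RNA was extracted with Trizol from frozen, pulverized tissue, and a sequencing company prepared poly A libraries. The authors deposited raw gene counts, 1 column per library and without normalization, on genome build mm10 per the labels. The aligner, counting tool and strand setting are not given in the sources used here, so overlapping genes and near-identical copies carry uncertain counts. The table held 54532 genes, of which 22149 had no count, 0 rows that name no gene and 0 unused columns of per-sample values. Groups and replicate numbers came from the labels. That samples are separate mice within a group is stated by the study. No pair of libraries within a group agreed within sampling noise (over 90 pairs, chi-square divided by its degrees of freedom was at least 12.8).

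Counts were scaled by TMM in edgeR 4.0.16 (R 4.3.3), filtered at a count minimum of 10 and tested by the quasi-likelihood test over 15354 genes, with Benjamini-Hochberg adjustment over all of them. Log2 CPM used a prior count of 2, and per-length values divide the CPM by the deposited gene length. Percentages of all genes count calls at an adjusted p of 0.05 in the same fit. The tests were first tested on simulated data with 200 changed genes. Alternatives were DESeq2 1.42.0, limma 3.58.1 voom with and without quality weights, 3 other scalings, no filter, a replicate block, and omission of each library. Omission of tumor 7 with normal kidneys 7 and 9, and of tumors 7 and 9, was added after the data were seen. The limit of 3 counts covers counting error alone, as PCR copies of a molecule were not told apart. The 10 genes and the 9 related and 13 marker lists were chosen with earlier results of these data known. From each related list the 2 largest rises and 2 largest falls among called genes with a group mean of at least 1 CPM were named by rule. Some genes that the rules name are not reported here. Other list genes (Ctnna1, Ctnnb1, Krt20, Lmna, Cldn7, Esrp1, Esrp2, the 4 repressors, Fn1, Sparc, Col1a1, Col3a1 and Acta2) were added after their values were seen. Promoter sequences and exons came from RefSeq (GRCm38.p6) and GENCODE tables.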

Additional observations from a re-analysis of the deposited data

Results flagged for a closer look

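A test for a single value far from the rest of its group was applied to the log2 CPM of the 10 genes in both groups. It marked 4 of 20 groups, and chance marks about 1 in 20. Vim in tumor 7 was at 10.34, while the other tumors lay between 5.51 and 7.47, and Vim in normal kidney 7 was at 8.53, against 5.86 to 6.66 in the others. Cdh16 in tumor 7 was at 8.13, against 9.38 to 10.13 in the other tumors. Cdh1 in normal kidney 9 was at 6.22, against 7.90 to 8.96 in the other normal kidneys.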

How the results depend on the processing

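Of the 10 genes, 7 kept their direction and their call under all 30 alternatives. Cdh16 was not called under any of the 30, and its log2 fold change, near 0, ran from -0.13 to 0.06 when single libraries were left out and was 0.03 without tumor 7 and normal kidneys 7 and 9 and 0.058 without tumors 7 and 9. Krt8 kept its direction but lost its call with DESeq2 size factors (0.74), upper quartile factors (0.65), library totals (0.66), no filter on low counts (0.76) and without tumors 7 and 9 (0.67). When single libraries were left out its value ran from 0.66 to 1.08. Vim gained a call with quality weights (0.61), with the replicate block (0.63) and without tumor 7 and normal kidneys 7 and 9 (0.62). Its value was 0.056 by DESeq2's Wald test and -0.009 without tumors 7 and 9, with no call in either. When single libraries were left out its value ran from 0.099 to 1.61. The causes of these changes were not tested.

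The main scaling called 49.79% of all called genes higher in tumors, upper quartile factors 39.22% and library totals 38.49%, with medians of all log2 fold changes of -0.021, -0.14 and -0.14. DESeq2's Wald test gave Epcam a log2 fold change of -4.47 and limma-voom of -8.45. Of 540 counts of called genes in the related lists, 40 moved by over 1.5 times. Of 750 values of 25 named genes of the related lists, 7 lost their call (Dsp and Jup) and none changed direction. Both groups came from the same 10 mice, but the labels do not say that a number marks a mouse. The main test therefore treated the 20 libraries as independent. The correlation of deviations of same-numbered libraries ran from -0.14 to 0.38 and was above 0.1 in 9 of 10 pairs. In 8 of 10 tumors the best match was the normal kidney of the same number. In 5 of 10 normal kidneys it was the tumor of the same number. These matches are a hint of pairing from the data and not from the labels. With the replicate block 3979 genes were called higher and 3886 lower, against 3631 and 3661 without it, and quality weights called 5337 and 5407. Values below 0.189 CPM are within the limit of 0 counts, so the order of tumors in Cdh2, Epcam and Krt7 is limited by depth there.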
